A study of Homo sapiens with 2 samples.

Results

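The genes described here encode the 2 protein assemblies that the long noncoding RNA HOTAIR is known to hold, in small-cell lung cancer cells in which HOTAIR was depleted. They are 10 genes chosen by name: EZH1, EZH2, SUZ12, EED, JARID2, RBBP4 and RBBP7 of polycomb repressive complex 2 (PRC2), and KDM1A, RCOR1 and REST of the LSD1-CoREST-REST complex. Probes were assigned to them by matching the RefSeq accession of each non-control spot to the RefSeq gene table of assembly GRCh38.p14. By this match 9 of the 10 genes had a probe, of 19061 genes named on the array, and EED had none. The 9 genes were read by 12 probes in 36 spots.

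Total RNA came from SBC-3, an established adherent small-cell lung cancer line, transfected either with the small interfering RNA #1 siHOTAIR or with siGFP, a control directed at a protein that human cells lack. One-colour Agilent SurePrint G3 Human GE 8 × 60K arrays were used, with 1 array per condition, both on the same slide. There were no replicate cultures and only this siRNA against HOTAIR was arrayed, so no P value was computed, an effect of HOTAIR loss and an effect of this siRNA sequence cannot be told apart, and the errors below cover the reading of an array but not the spread between cultures. In the whole-cell RNA, fewer cells with a transcript and less transcript per cell cannot be told apart either.

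PRC2 places the repressive methyl marks on lysine 27 of histone H3. EZH2 or its relative EZH1 is the catalytic subunit, EED and SUZ12 complete the core without which the enzyme is inactive, RBBP4 and RBBP7 are histone-binding subunits, and JARID2 is an accessory subunit that helps recruit the complex to chromatin. LSD1, the product of KDM1A, removes methyl groups from lysine 4 of histone H3. RCOR1 encodes CoREST, which ties LSD1 to nucleosomes and to histone deacetylases, and REST is the zinc-finger repressor that brings this complex to neuronal genes in nonneuronal cells. HOTAIR is described as a scaffold that binds PRC2 at one part and LSD1-CoREST-REST at another, that is, at the level of proteins, which arrays do not read. The question for the members was whether the messenger RNAs of the scaffold's partners differed between HOTAIR-depleted and control cells.

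The treatment is defined by the sequence of its siRNA, and both strands of #1 siHOTAIR are given here 5′ to 3′, from the study's supplement, in which the antisense strand is written 3′ to 5′ and was reversed here. Each strand has 21 bases, of which 19 pair and the last 2 overhang. The capitals mark bases 2 to 8 of the antisense strand, the seed through which a guide strand can also pair with other transcripts.
#1 siHOTAIR antisense: uCUCUCUGuacucccguucuu
#1 siHOTAIR sense: gaacgggaguacagagagauu

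HOTAIR itself was read by 1 spot, with a processed signal of 107.8 in #1 siHOTAIR cells and 243.9 in siGFP cells. After each array was scaled to its 75th percentile, HOTAIR was 57.2% lower in #1 siHOTAIR cells, a log2 ratio of −1.22 with a measurement SD of 0.15. This SD, used throughout, was taken from the scatter of repeated spots of the same probe at like signal. It is the SD of a ratio of spot means, so it is smaller where a probe has more spots. With the normexp background correction the HOTAIR ratio was −0.76. The reference genes differed little: both ACTB probes had log2 ratios of −0.05 and −0.02, and GAPDH had 0.00. By the scanner software, 55.5% of the spots of #1 siHOTAIR cells and 58.3% of those of siGFP cells were well above background, called detected here. Among markers of neuroendocrine small-cell lung cancer, DLL3 and NEUROD1 were well above background on both arrays, CHGA only in #1 siHOTAIR cells, and INSM1 and SYP on neither. NEUROD1 had signals of 212.7 and 371.8 and a log2 ratio of −0.85. Of the other subtype markers YAP1 was detected on both arrays and POU2F3 on neither. The epithelial keratins KRT8 and KRT18 were detected on both and CDH1 on neither. The spots of NCAM1, detected in #1 siHOTAIR cells only, disagreed there with signals of 67.75 and 9.569, as did those of EPCAM, detected in siGFP cells only, with 81.52 and 7.719. Of the fibroblast genes, COL1A1 had a log2 ratio of 0.96 and COL1A2 of −0.04, and PDGFRB was detected on neither array. The leukocyte gene PTPRC was detected by 1 of its 4 probes on both arrays, and the endothelial gene PECAM1 on neither. The part of these marker differences in the values below was not tested.

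No member messenger RNA differed by 2-fold between the conditions, and 1 member stood apart from the others: SUZ12, which was 1.42-fold higher in HOTAIR-depleted cells. On each array all 36 member spots were well above background, and none was marked as an outlier. Of the 12 member probes, 0 reached a 2-fold and 0 a 1.5-fold difference. Among all 24117 probes compared, which had to be well above background on at least 1 array, 7.4% differed by 2-fold and 18.2% by 1.5-fold. The share past 2-fold was 3.03% where a probe was detected in both conditions, and 2.02% of the probes at least as bright as the dimmest member. A count of 0 among 12 probes is therefore near what the array gave at these signal levels. The gene-level log2 ratios of the 9 members had a median of −0.10, beside 0.02 for all 13005 named genes compared, whose quartiles were −0.22 and 0.25. Without SUZ12, the ratios of the other 11 probes lay between −0.25 and 0.06.

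**Figure D1:**
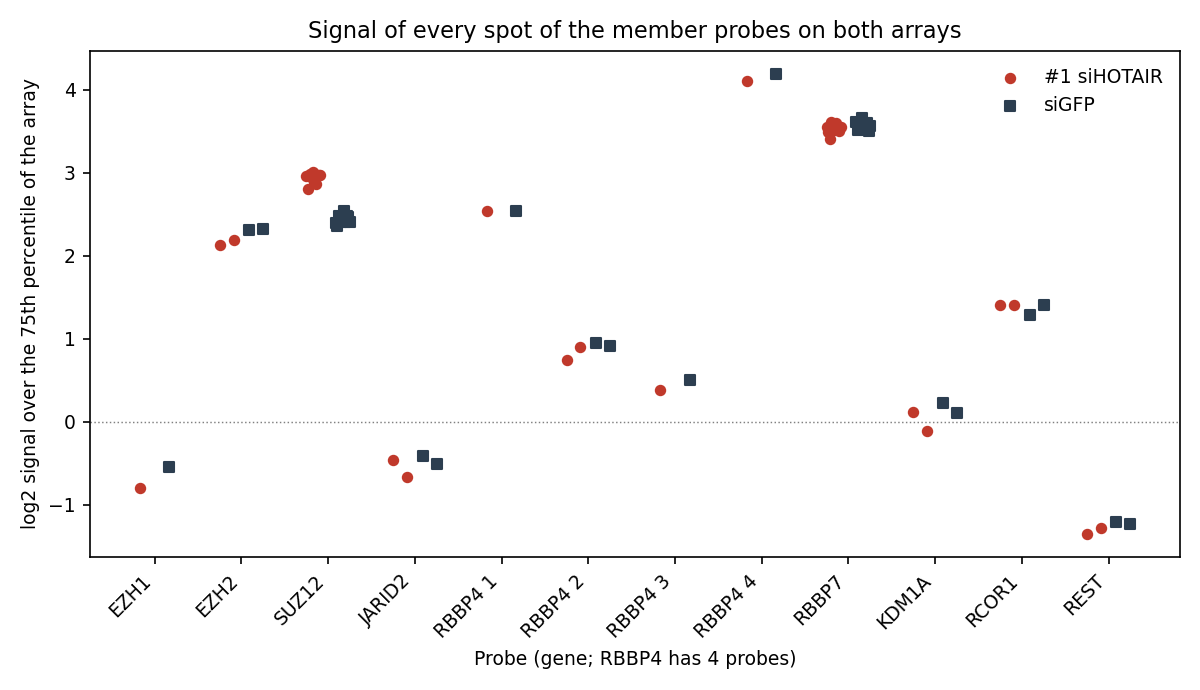
Signal of each spot of the 12 member probes, as log2 over the 75th percentile of its array (vertical axis), for the #1 siHOTAIR array (circles) and the siGFP array (squares); RBBP4 has 4 probes. The 10 SUZ12 spots of #1 siHOTAIR cells lie above the 10 of siGFP cells, and the spots of every other probe lie close together or overlap.

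The catalytic subunits were both slightly lower in signal after HOTAIR depletion. EZH2, the main methyltransferase subunit of dividing cells, had spot signals of 2843 and 2965 in #1 siHOTAIR cells and of 3130 and 3150 in siGFP cells. Its spots did not overlap, and its log2 ratio was −0.16 with a measurement SD of 0.06. EZH1, the form found mostly in nondividing cells, was read by 1 spot with signals of 374.6 and 430.2, and its log2 ratio of −0.25 (measurement SD 0.11) was the lowest of the members. The EZH2 ratio lay between the quartiles of all genes, and that of EZH1 just below the lower one.

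SUZ12, the core subunit that stabilises PRC2, was read by 1 probe printed in 10 spots. Its signal ranged from 4542 to 5223 with a median of 5078 in #1 siHOTAIR cells, and from 3223 to 3676 with a median of 3388 in siGFP cells. Every SUZ12 spot of #1 siHOTAIR cells was brighter than every one of siGFP cells. The log2 ratio was 0.50 with a measurement SD of 0.027, and the ratios of the 10 spot positions ran from 0.35 to 0.57. The SD between its spots was 0.06 in #1 siHOTAIR cells and 0.05 in siGFP cells on the log2 scale, each within 1 array. The scanner software gives an SD of 0.20 for a spot ratio, which joins the errors of both arrays and is not a like measure.

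Spots past 2-fold were unevenly placed on the arrays: of the spots detected on at least 1 array, they made up 9.06% in rows 1 to 144 and 5.65% in rows 145 to 384. SUZ12 had 5 spots in each region, with mean log2 ratios of 0.53 and 0.48, so that the difference was present in both.

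**Figure D2:**
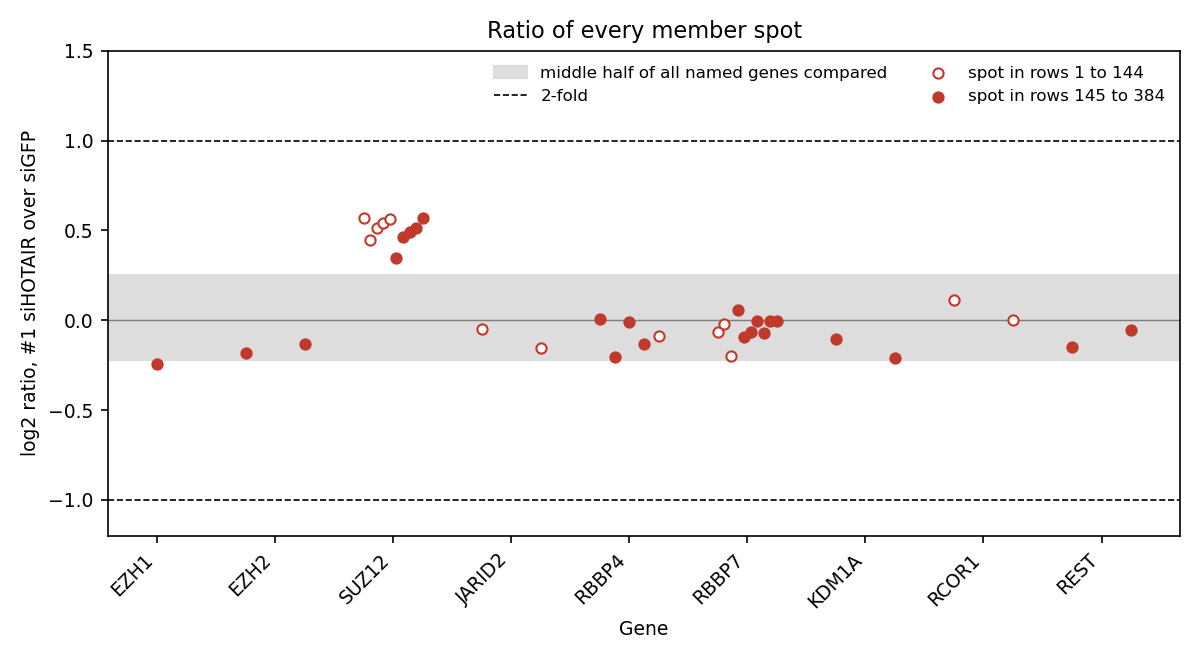
Log2 ratio of #1 siHOTAIR over siGFP (vertical axis) for each of the 36 member spots, by gene; open circles are spots in rows 1 to 144 of the array and filled circles are spots in rows 145 to 384. The grey band runs between the quartiles of all named genes compared (−0.22 to 0.25) and the dashed lines mark 2-fold; the SUZ12 spots, at 0.35 to 0.57, lie above the band in both regions.

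Set against other probes printed as often, SUZ12 was high but not alone. With SUZ12 and RBBP7 included, 685 probes with 10 spots had a median log2 ratio of −0.03 and an SD of 0.45. In 37 of the other 684, or 5.41%, the ratio was at least as high as that of SUZ12. In 115, or 16.8%, it was at least as far from 0 in either direction. These probes were not matched for signal. Of the 37, only B4GALT3 (0.52) and PTX3 (0.63) were brighter than SUZ12 in mean scaled signal, and the others were dimmer. Brighter probes at least as far below 0 included those of ETFB (−0.65), MCTS1 (−0.72), BAX (−0.61), GUSB (−0.65) and SAP30 (−0.52). A complete separation of the spots of both arrays was common as well. All #1 siHOTAIR spots lay above all siGFP spots in 16.9% of the 685 probes, and below them in 24.2%. RBBP7 had no such separation and lay at the 48.0th percentile of these probes, against the 94.5th for SUZ12.

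The array also carries probes for SUZ12P1, a transcribed pseudogene that is a near-identical copy of part of SUZ12. It had 2 probes of 1 spot each. One had signals of 19620 and 21280, a log2 ratio of −0.16 (measurement SD 0.07), and the other had signals of 80060 and 57730, a ratio of 0.43 (measurement SD 0.07). The SUZ12P1 probes thus had ratios of opposite sign, and the brighter one was near the SUZ12 value. Both were much brighter than the SUZ12 probe, whose mean signals were 4991 in #1 siHOTAIR cells and 3415 in siGFP cells. Probe sequences were not used here, so how far the SUZ12 probe reads the copy was not tested. What the SUZ12P1 probes read was not tested either.

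**Figure D3:**
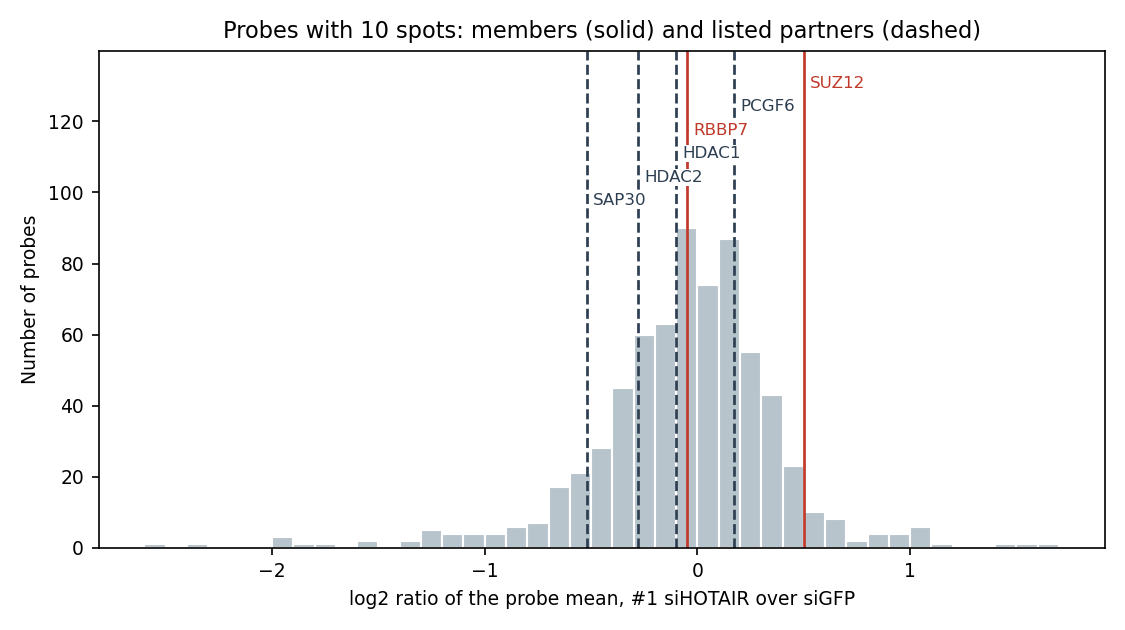
Distribution of the log2 ratio of #1 siHOTAIR over siGFP (horizontal axis) over the 685 probes with 10 spots, as the number of probes per bin of 0.1. Solid lines mark the members SUZ12 (0.50) and RBBP7 (−0.05), and dashed lines mark the listed partners SAP30 (−0.52), HDAC2 (−0.28), HDAC1 (−0.10) and PCGF6 (0.17).

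The histone-binding subunits had almost equal signals in both conditions. RBBP7 was read by 10 spots, with a lowest, median and highest signal of 6882, 7549 and 7926 in #1 siHOTAIR cells and of 7140, 7585 and 7981 in siGFP cells. The ranges overlapped, and the log2 ratio was −0.05 with a measurement SD of 0.024. The spot ratios of RBBP7 ran from −0.20 to 0.06, none as high as the lowest of SUZ12.

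RBBP4, its close paralogue, had 4 probes. The brightest had signals of 11210 and 11530, a log2 ratio of −0.09 (measurement SD 0.07). The second had signals of 3790 and 3655, a ratio of 0.01 (measurement SD 0.08). In the probe printed in 2 spots the signal was 1090 and 1213 in #1 siHOTAIR cells and 1217 and 1184 in siGFP cells, a ratio of −0.11 (measurement SD 0.06), and the spots overlapped before scaling only. The dimmest had signals of 844.8 and 896.1, a ratio of −0.13 (measurement SD 0.09). The 4 probes thus gave ratios between −0.13 and 0.01, and no probe neared the SUZ12 value. RBBP4 also has pseudogene copies in the gene table, and how far these probes read the copies was not tested.

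JARID2, the accessory subunit among the members, had spot signals of 471.4 and 411.4 in #1 siHOTAIR cells and of 472.8 and 444.2 in siGFP cells. The spots overlapped, with a log2 ratio of −0.10 and a measurement SD of 0.08. Over the 6 PRC2 members with a probe the median was −0.09, with 1 gene above 0 and 5 below, and without SUZ12 it was −0.10.

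The LSD1-CoREST-REST members had ratios close to 0. KDM1A, which encodes the lysine 4 demethylase, had spot signals of 707.8 and 602.3 in #1 siHOTAIR cells and of 736.3 and 674.7 in siGFP cells. The spots overlapped, and the log2 ratio was −0.16 (measurement SD 0.08). RCOR1, which encodes the CoREST scaffold of the demethylase, had signals of 1717 and 1731 against 1537 and 1675, a ratio of 0.06 (measurement SD 0.06). After scaling its spots overlapped, with log2 ratios of 0.11 at one position and 0.00 at the other. REST, the DNA-binding repressor, was the dimmest member, with signals of 254.9 and 267.4 against 273.3 and 268.7. The spots did not overlap, but the log2 ratio of −0.10 was smaller in size than its measurement SD of 0.11. The median of the 3 genes was −0.10, with 1 above 0 and 2 below.

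The sign of offsets this small depends on where 0 is set. Scaling to the spike-in RNA moved every ratio up alike, by 0.10, so that RBBP4 and RBBP7 had ratios of 0.01 and 0.05. Relative to the median of all probes compared, the median of the members was −0.11 with the 75th percentile and with the spike-in RNA. SUZ12 kept a ratio between 0.46 and 0.60 under all 8 scaling and background settings, and exceeded the next highest member by 0.37 to 0.45.

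**Figure D4:**
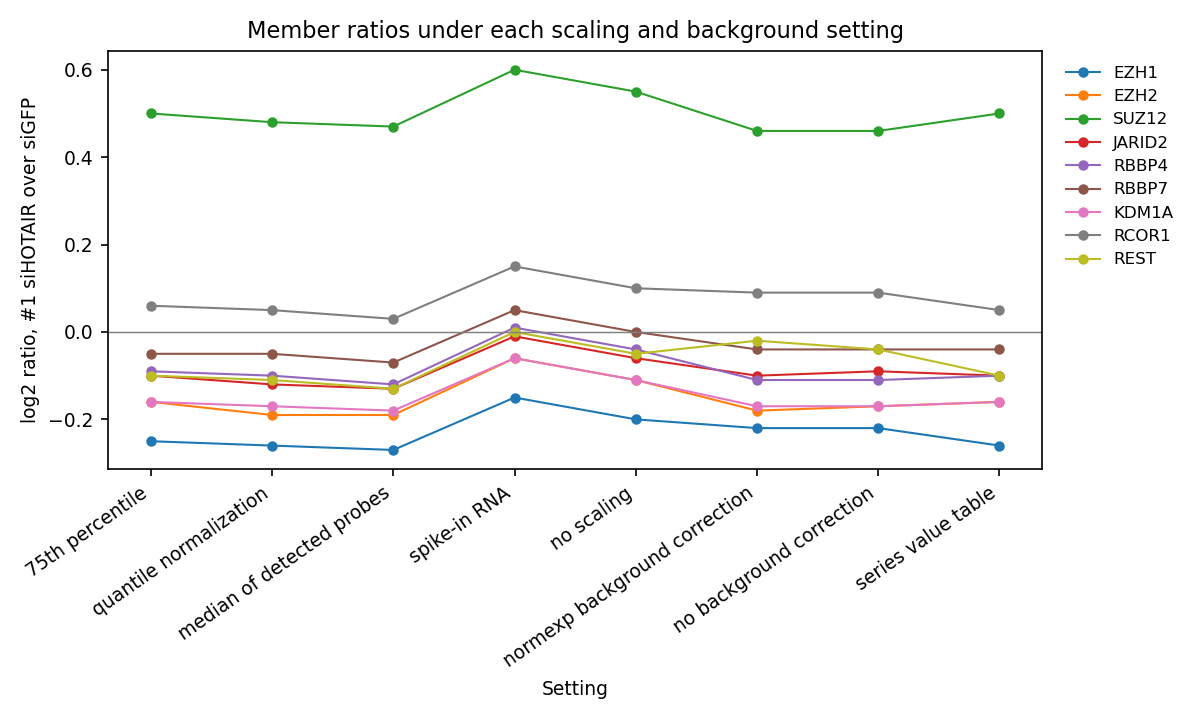
Log2 ratio of #1 siHOTAIR over siGFP (vertical axis) of the 9 member genes under each of the 8 scaling and background settings (horizontal axis), 1 line per gene; lines join settings for legibility only. SUZ12 lies between 0.46 and 0.60 under all of them, and the other 8 genes lie between −0.27 and 0.15.

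The further subunits of both complexes, their partners and neuronal target genes of REST were taken from 6 lists, of which 102 probes could be compared. Of these, 8 or 7.84% differed by 2-fold, beside the 7.4% of all probes compared. They were unevenly spread over the lists. The neuronal genes that REST represses held 6, of 14 probes compared (42.9%), and the PRC1 subunits held 2, of 28 (7.14%). Of the 6, the probes of CHGA and CHGB were detected only in #1 siHOTAIR cells, where they were high, and that of BDNF only in siGFP cells. Among the 9 neuronal genes detected on both arrays, 2 were at least 2-fold higher, VGF and KCNC1. Over the 6 lists, 4 of 95 probes detected on both arrays differed by 2-fold, beside 3.03% of all such probes. With the normexp correction or without background correction 1 of the 8 stayed past 2-fold, that of VGF. The lists are described by their counts and medians only. Among all named genes, 2.72% were at least 2-fold higher and 3.39% at least 2-fold lower in #1 siHOTAIR cells.

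Among the accessory subunits of PRC2, which decide where the core binds, 7 of 8 genes could be compared and 0 differed by 2-fold. Their median log2 ratio was 0.08, with 4 above 0 and 3 below. The highest was PHF19, a polycomb-like subunit, with signals of 19410 and 14160 and a ratio of 0.41 (measurement SD 0.07), although its second, dimmer probe had −0.02. The lowest was EPOP, with signals of 5846 and 7248 and a ratio of −0.36 (measurement SD 0.07).

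PRC1, the sister complex that ubiquitinates histone H2A, was represented by 21 genes, all compared, with a median of 0.14, 13 above 0 and 8 below. YAF2, a subunit of variant PRC1, was the highest of those detected on both arrays, with signals of 995.2 and 570.8 in 1 spot and a log2 ratio of 0.76 (measurement SD 0.11). PCGF5, which also marks a variant PRC1, was the lowest, with 170.7 and 281.5 and a ratio of −0.77 (measurement SD 0.15). PCGF3 was well above background only in #1 siHOTAIR cells, where its signal was 61.45 against 29.22 in 1 spot. It was 2.04-fold higher, a log2 ratio of 1.03 (measurement SD 0.32), or 0.32 with the normexp correction. Probes disagreed for CBX7, a chromodomain subunit: the brighter had a ratio of 0.12 and the dimmer −1.01, and it is the other PRC1 probe past 2-fold.

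Of the other LSD1-CoREST subunits and recruiters, 14 of 17 genes could be compared, with a median of −0.10, 6 above 0 and 8 below, and 0 differed by 2-fold. RCOR2, a CoREST paralogue that can take the place of RCOR1, was the highest, with signals of 3150 and 1672 in 1 spot and a log2 ratio of 0.87 (measurement SD 0.08). The 2 paralogues thus differed from siGFP cells by 0.06 and 0.87 on the log2 scale. PHF21A, the subunit that reads unmethylated lysine 4, was the lowest of those detected on both arrays, with signals of 79.92 and 126.1 and a ratio of −0.70 (measurement SD 0.32). GFI1B, a repressor that recruits LSD1, was detected in siGFP cells only, with 32.54 against 59.09. Its siGFP spots disagreed, at 90.16 and 28.02, as did those of #1 siHOTAIR cells, at 41.2 and 23.87, so no bound on the fold is given. The histone deacetylases of the complex had probes with 10 spots. HDAC2 ranged from 5276 to 6184 in #1 siHOTAIR cells and from 5920 to 7268 in siGFP cells, a ratio of −0.28 (measurement SD 0.037) with overlapping spots, whereas its second, much dimmer probe had 0.54 (measurement SD 0.23). HDAC1 had a ratio of −0.10 (measurement SD 0.020), also with overlapping spots.

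All 13 REST corepressors and regulators of REST stability could be compared, with a median of 0.14, 10 above 0 and 3 below, and 0 differed by 2-fold. BTRC, the F-box protein through which REST is marked for degradation, had spot signals of 392.6 and 407.9 in #1 siHOTAIR cells and of 206.1 and 224.8 in siGFP cells. Its spots were well separated, and its log2 ratio of 0.85 (measurement SD 0.11) was the highest of the list. SAP30, a subunit of the SIN3 deacetylase complex, was the lowest, at −0.52 (measurement SD 0.042). Its signals ran from 4992 to 6381 in #1 siHOTAIR cells and from 7277 to 8940 over 9 spots in siGFP cells, with no overlap.

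The enzymes that act on the same histone marks had a median of 0.10 over the 7 of 8 genes compared, with 6 above 0 and 1 below, and 0 differed by 2-fold. SETD1A, a lysine 4 methyltransferase, was the highest of those detected on both arrays, with signals of 5968 and 4431 and a log2 ratio of 0.38 (measurement SD 0.07). KDM6A, a lysine 27 demethylase, was the lowest, with 160.5 and 167.9 and a ratio of −0.11 (measurement SD 0.15), whereas its second, dimmer probe had 0.90 (measurement SD 0.23).

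Neuronal genes that REST is known to repress had the highest median of the 6 lists. Of 20 genes, 12 could be compared, with a median of 0.42, or 0.38 with genes below background on 1 array set at their bound, and 10 were above 0 and 2 below. VGF, a secreted neuropeptide precursor, was the highest of those detected on both arrays, with spot signals of 13220 and 12560 in #1 siHOTAIR cells and of 3755 and 3537 in siGFP cells. It was 3.42-fold higher, a log2 ratio of 1.78 (measurement SD 0.05). KCNC1, a voltage-gated potassium channel, had signals of 513.8 and 218.3, a ratio of 1.19 (measurement SD 0.15), and its second probe had 1.21. SNAP25, a synaptic vesicle fusion protein, was the lowest of those detected on both arrays, with 299.9 and 295.0 and a ratio of −0.02 (measurement SD 0.11). CHGA, a granin of secretory granules, was well above background only in #1 siHOTAIR cells, with 72.27 against 10.64. With siGFP cells set at their bound it was 2.44-fold higher, and with the normexp correction its log2 ratio was 0.72. The 2 spots of CHGB, a related granin, disagreed: their signals were 78.19 and 9.937 in #1 siHOTAIR cells against 7.334 and 7.522 in siGFP cells, so that its detection rests on 1 spot and no bound on the fold is given. The remaining probe past 2-fold was a dim second probe of BDNF, with 9.035 against 25.24, detected in siGFP cells only through spots of 42.9 and 7.592, whereas its brighter probe had 0.46. The other gene below 0, CALB1, a calcium-binding protein, had 21.61 against 34.00, was detected in siGFP cells only and was too dim for a bound. These neuronal values stood beside a REST messenger RNA ratio of −0.10, and any link between them was not tested.

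**Figure D5:**
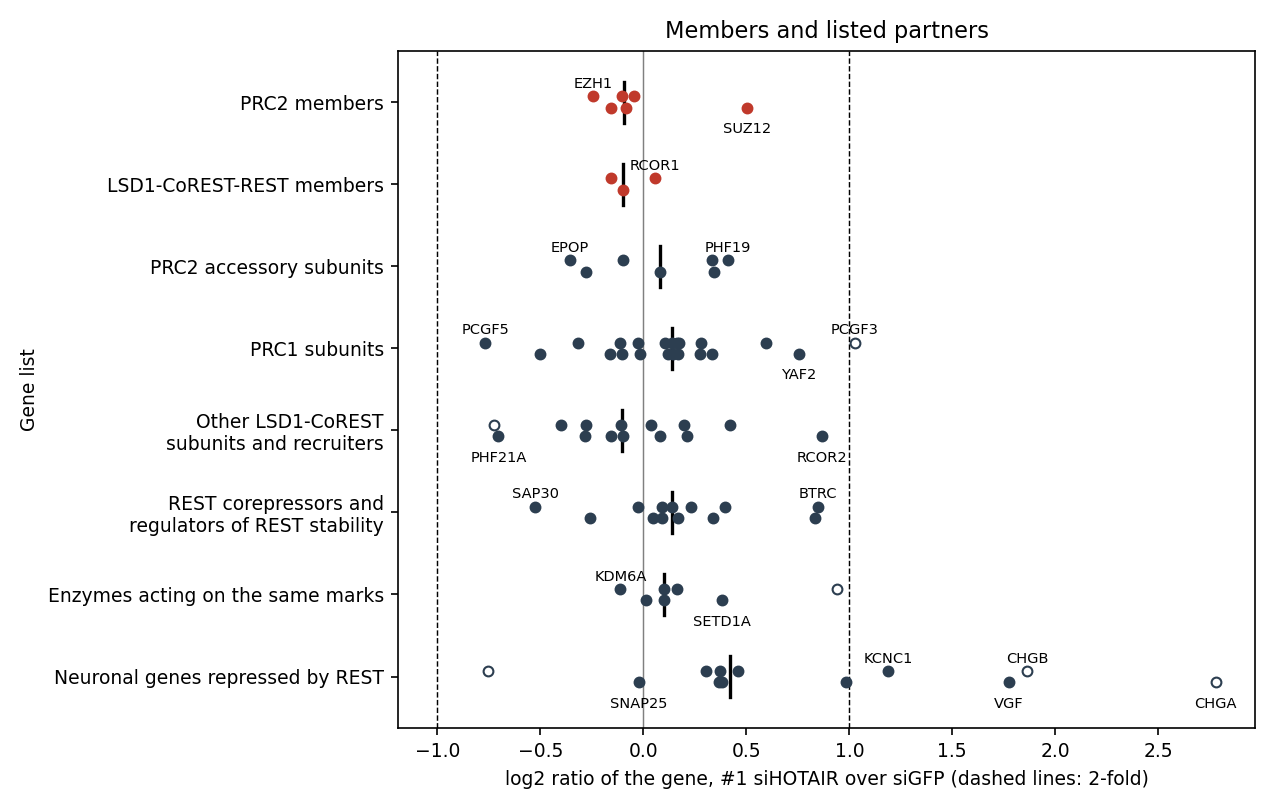
Log2 ratio of #1 siHOTAIR over siGFP (horizontal axis) of each gene compared, in the member lists (top, red) and the 6 lists of partners and targets; filled circles are genes well above background on both arrays, open circles genes so on 1 array at their measured value, short vertical lines list medians, and dashed lines 2-fold. SUZ12 (0.50) stands apart from the other members, and the genes past 2-fold are PCGF3, KCNC1, VGF, CHGB and CHGA.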

How the data were processed

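Cy3-labelled RNA of 2 samples was hybridised, and the authors deposited the scanner output of Agilent Feature Extraction 10.10.1.1: per spot a processed signal (an intensity after background subtraction), its error and its flags. A value table deposited with the series held the background-subtracted intensity on a linear scale (largest difference 0.0; medians 55.08 and 53.0) and was used as an alternative.

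Each array's 75th percentile was subtracted from the log2 processed signals of its non-control spots (650.3 for #1 siHOTAIR and 629.9 for siGFP). Outlier spots were left out (393 and 375), no spot was saturated, and a probe's value was the mean log2 signal of its spots. A probe counted as well above background (detected) if at least 50% of its spots were, and was compared if this held on 1 array or both. Where it held on 1 array only, a bound on the fold was also taken. It used the lowest signal well above background on the other array (37.3 and 28.6) or the probe's own if higher. Counts past 2-fold, log2 ratios and medians used the measured signals unless the bound is named. A gene was read from its brightest probe. Accessions, which gave a gene name to 58.5% of 42402 probes, were matched to the RefSeq table of GRCh38.p14, and symbols on the array were not used. The measurement SD came from spots of probes with 10 spots at 6 signal levels, or from a probe's own spots where it had 10. It limits the precision, and no depth applies to arrays. Genes named from the lists were the highest and lowest of those well above background on both arrays and each gene at least 2-fold changed, besides second probes, GFI1B, CALB1 and probes with 10 spots, chosen after their values were seen. One marker gene is not reported here. The methods' P threshold needs replicates and was not applied. The members and lists were chosen with earlier results of these data known.

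Alternatives were other scalings (quantile, median of detected probes, spike-in RNA, none), normexp with an offset of 50 and no background correction (both on the median pixel signal), the value table with a floor of 10, other filters and folds, and the median of a gene's probes. The procedure was tested on simulated data. Python 3.11.15, numpy 2.4.6, pandas 2.3.3, matplotlib 3.10.9, R 4.3.3 and limma 3.58.1 were used.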

Additional observations from a re-analysis of the deposited data

How the results depend on the processing

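No paired analysis was possible because each condition had 1 array, and for the same reason no array could be left out in turn. The count of member probes past 2-fold stayed at 0 under the settings run. The ratios of single members moved with the setting: of 69 alternatives, 56 moved them by less than the measurement SD and 13 by more. The 69 include limiting spots to rows 145 to 384. All spots of EZH1, EZH2, KDM1A and REST lie in these rows, so that their ratios could not move with that limit. Scaling to the spike-in RNA moved every ratio up alike, by 0.10, and so the median of the members to −0.00, of the PRC2 members to 0.00, of the LSD1-CoREST-REST members to −0.00, of the PRC2 accessory subunits to 0.18, of the other LSD1-CoREST subunits to −0.01, of the REST corepressors to 0.24 and of the enzymes on the same marks to 0.20, and the median of the members relative to all probes compared stayed at −0.11. With no filter on dim probes the median of the PRC2 accessory subunits was 0.21. The gene this added was EZHIP, which was well above background on neither array, with 9.285 against 7.025. The HOTAIR ratio was −0.76 with normexp and −0.73 without background correction, and the cause was not tested. The 8 probes of the 6 lists past 2-fold, of neuronal genes and PRC1 subunits, became 1 with normexp and 1 without background correction. The count was 4 where a probe had to be detected in both conditions, 22 at 1.5-fold and 3 at 3-fold. Limiting spots to rows 145 to 384, chosen after seeing the data, left the brightest probe of 6 of the 9 member genes, with a median of −0.13. RBBP4 also had spots there, but of its dimmer probes, and these were not used. Signal over background limits the lists more than the members, whose spots were all well above background.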
